A study of Mus musculus with 6 samples.

Results

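The mouse genome table analysed here annotates 44 protein-coding genes whose symbols follow the pattern of the collagen alpha chains (Col, type number, a, chain number), out of 54532 annotated genes. The rule reads symbol and gene type and no expression value, although it was set with earlier results of these data known. By the structure of the proteins they fall into 11 fibrillar chains, 8 basement membrane chains and 25 chains of other types. Collagens are secreted proteins in which 3 alpha chains wind into a triple helix. Fibrillar collagens pack into the tension-bearing fibres of the stroma, type IV collagens link into the sheets of basement membranes, and most other types decorate fibrils or anchor cells to them. In the liver, hepatic stellate cells, portal fibroblasts and endothelial cells are the usual sources of type I, III and IV chains, while hepatocytes are a known source of type XVIII collagen, whose C-terminal end can be released as endostatin.

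Liver RNA was sequenced from mice aged 5 weeks, in 3 libraries labelled Fam210aHKO, from livers whose hepatocytes lack Fam210a, and 3 control libraries labelled Ctrl. FAM210A sits in the inner membrane of mitochondria, and the comparison addresses what its loss from hepatocytes does to the juvenile liver. The labels name neither the driver of the deletion nor the alleles carried by the controls. The genotype labels of Fam210aHKO replicates 2 and 3 carry other gene numbers, so the titles, which read Fam210aHKO for all 3, set the groups. Whether each sample was a separate animal is not stated in the labels, and the p-values below rest on sample-to-sample spread that may be partly technical.

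Levels are counts per 1e6 of the library, scaled by TMM factors (CPM). Libraries held 17.6, 12.5 and 19.7 M counts (1 M is 1e6) in Fam210aHKO and 13, 15.5 and 16.9 M in Ctrl. The targeted gene had 31.7, 28.6 and 44.2 CPM in Fam210aHKO, against 119, 136 and 162 CPM in Ctrl, so it was lower in all 3 knockout libraries. Of 13706 genes tested with edgeR's quasi-likelihood F test, 1922 were higher and 1852 lower at a Benjamini-Hochberg adjusted p under 0.05, which is the meaning of a call throughout. One library stood apart for the genes described here: 19 of the 22 tested collagens had their highest Fam210aHKO level in replicate 3, whereas 37.3% of all tested genes did. The median collagen was 1.70 times higher in that replicate than in the mean of the other two, against 0.999 times for all tested genes. Results are therefore given with and without it where it matters.

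Collagen transcripts of the Fam210aHKO liver changed in both directions. Most tested type IV chains, the type III chain Col3a1 and the type I chain Col1a1 were called higher. The type XVIII chain, the most abundant collagen transcript of this tissue per length, was lower. The other type I chain, Col1a2, was not called, and the calls of Col3a1 and Col1a1 were each lost in 5 of 16 alternative fits. Of the 44 genes, 22 had enough counts to be tested; 7 were higher (Col3a1, Col1a1, Col4a1, Col4a2, Col4a3, Col4a4 and Col6a3), 3 were lower (Col18a1, Col5a3 and Col27a1) and 12 were not called. The higher share was 31.8% of the tested collagens, against 14.0% of all tested genes. The lower share was 13.6%, against 13.5%, a share near the background. Without overlap between the groups, 7 collagens were higher and 3 lower, where the same was true of 22.0% and 20.7% of all tested genes. The tested collagens had a median log2 fold change of 0.62, against 0.02 for all tested genes, and without Fam210aHKO replicate 3 it was 0.26. The filter cutoff, 0.618 CPM of the unscaled library, was passed in all 6 libraries by 19 of the 22. Col4a3, Col4a4 and Col8a1 passed it through Fam210aHKO libraries only, so they had to be higher there to be tested. Among the 19, 5 were higher (26.3%) and 3 lower (15.8%), with a median of 0.57. Without Fam210aHKO replicate 3, 5 of all tested collagens were called higher and 3 lower, beside 1897 of 13861 tested genes higher. Without Ctrl replicate 1, 2 or 3 the count of collagens higher was 4, 4 or 3. The all-gene counts of these 3 fits are not given here, so those counts stand without a background share. The scaling also moved the counts: with plain library totals 17 collagens were higher and 2 lower, beside 5846 higher (42.7%) and 868 lower (6.33%) of all tested genes. Fits by limma on the deposited FPKM (fragments per kilobase and 1e6 of library size) called 3 of the 22 collagens higher. They called 1590 or 1589 of 13706 tested genes higher.

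**Figure D1:**
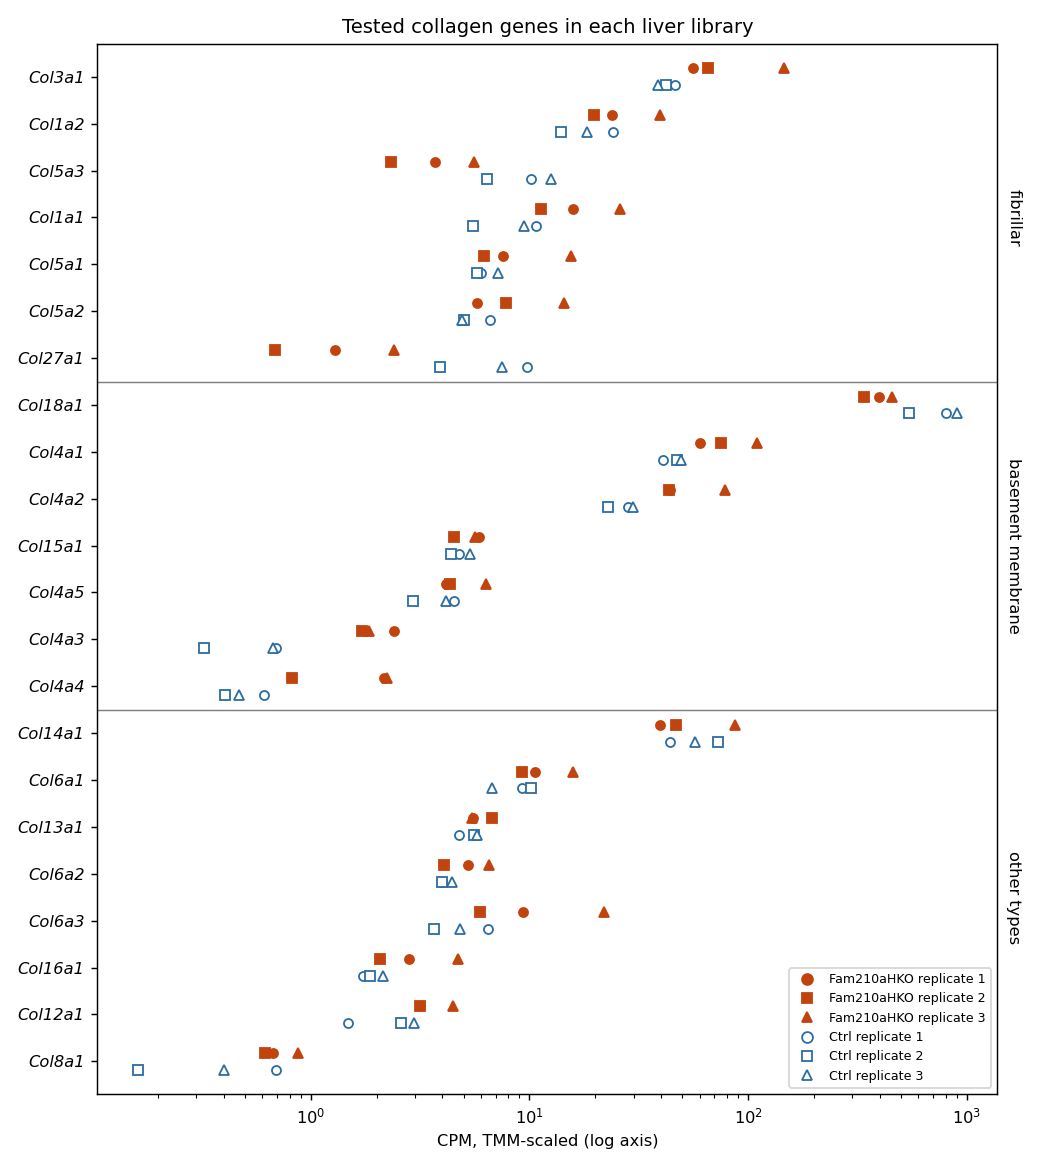
CPM (log axis) of the 22 tested collagen genes in each library, ordered within class by level per length; filled symbols are Fam210aHKO, open symbols Ctrl, and the symbol shape gives the replicate number. Fam210aHKO replicate 3 is the rightmost Fam210aHKO symbol for 19 of the 22 genes, and the open and filled symbols of Col18a1 do not overlap.

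The start-site sequences of the collagens on which the results turn are shown first, because a pair of them overlap and because they differ in base composition. The windows run from 250 bases before to 50 bases after the annotated start, on the strand of the gene, from RefSeq on GRCm38.p6 (the assembly of mm10, which is the build of the deposited tables). Of the 44 genes 35 were matched, with 38 windows. Capitals mark 3 motifs searched on both strands, the TATA box TATAAA, the CCAAT box CCAAT and the GC box GGGCGG. The Col4a1 window is chr8:11312777-11313076 on the minus strand, and the Col4a2 window is chr8:11312555-11312854 on the plus strand.
Col4a1: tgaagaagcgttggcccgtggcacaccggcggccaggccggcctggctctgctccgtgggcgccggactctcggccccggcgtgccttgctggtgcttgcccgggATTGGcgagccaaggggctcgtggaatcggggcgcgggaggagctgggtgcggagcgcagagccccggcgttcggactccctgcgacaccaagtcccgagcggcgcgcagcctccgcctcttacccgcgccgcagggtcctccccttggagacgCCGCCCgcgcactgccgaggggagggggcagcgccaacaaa
Col4a2: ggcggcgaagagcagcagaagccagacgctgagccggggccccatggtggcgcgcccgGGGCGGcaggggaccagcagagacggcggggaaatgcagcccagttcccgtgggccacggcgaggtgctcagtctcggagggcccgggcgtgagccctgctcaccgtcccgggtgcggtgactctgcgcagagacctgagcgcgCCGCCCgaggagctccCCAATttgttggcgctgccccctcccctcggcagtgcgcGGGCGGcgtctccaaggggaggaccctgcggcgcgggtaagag
The 2 starts are 21 bases apart on opposite strands, the first 22 bases of each gene overlap the other, and the windows share 78 bases. The window of Col4a4, another type IV chain whose gene lies head to head with Col4a3 at a distance of 71 bases, is chr1:82586800-82587099 on the minus strand and holds none of the 3 motifs.
Col4a4: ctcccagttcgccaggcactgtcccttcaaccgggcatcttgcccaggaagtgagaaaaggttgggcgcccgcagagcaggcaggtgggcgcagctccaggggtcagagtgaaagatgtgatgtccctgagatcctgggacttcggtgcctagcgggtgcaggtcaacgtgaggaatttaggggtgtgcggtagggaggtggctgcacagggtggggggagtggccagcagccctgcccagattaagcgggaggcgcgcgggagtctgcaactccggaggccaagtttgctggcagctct
The Col3a1 window, chr1:45311288-45311587 on the plus strand, differs from these in its low G and C content, 37.7% against 74.0% in Col4a1. It holds a match to the TATA box letters, which lies near the middle of the window, well before the annotated start.
Col3a1: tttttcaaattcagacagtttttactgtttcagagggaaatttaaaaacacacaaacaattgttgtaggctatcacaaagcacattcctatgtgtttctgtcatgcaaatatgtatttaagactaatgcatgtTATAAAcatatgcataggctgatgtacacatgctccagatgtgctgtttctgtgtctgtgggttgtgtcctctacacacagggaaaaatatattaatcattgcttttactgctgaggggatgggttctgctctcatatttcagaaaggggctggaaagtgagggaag
The chains that were lower are represented by Col18a1, which has 2 annotated starts, the outer at chr10:77166481-77166780 and the inner at chr10:77113656-77113955, both on the minus strand, and by Col27a1, chr4:63215162-63215461 on the plus strand.
Col18a1, outer start: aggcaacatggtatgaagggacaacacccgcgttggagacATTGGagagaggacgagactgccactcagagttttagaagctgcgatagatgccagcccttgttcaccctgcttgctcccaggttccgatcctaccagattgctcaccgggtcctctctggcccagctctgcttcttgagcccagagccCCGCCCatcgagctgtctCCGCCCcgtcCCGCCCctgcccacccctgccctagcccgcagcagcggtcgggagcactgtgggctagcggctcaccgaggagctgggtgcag
Col18a1, inner start: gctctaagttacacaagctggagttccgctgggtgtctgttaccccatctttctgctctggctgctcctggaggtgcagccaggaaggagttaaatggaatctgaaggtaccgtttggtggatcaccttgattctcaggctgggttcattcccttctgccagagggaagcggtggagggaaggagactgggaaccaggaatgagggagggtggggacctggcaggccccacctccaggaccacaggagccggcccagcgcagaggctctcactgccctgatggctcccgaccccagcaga
Col27a1: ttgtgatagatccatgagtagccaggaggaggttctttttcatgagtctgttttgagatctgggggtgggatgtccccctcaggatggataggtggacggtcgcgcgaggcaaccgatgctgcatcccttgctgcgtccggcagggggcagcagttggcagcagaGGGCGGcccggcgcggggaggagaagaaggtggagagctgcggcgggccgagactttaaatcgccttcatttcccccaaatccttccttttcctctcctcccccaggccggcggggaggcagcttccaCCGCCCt
The outer Col18a1 window holds 3 GC boxes and the inner none of the 3 motifs; the counts are per gene and do not separate transcripts from the 2 starts. The GC box was in 23 of the 38 collagen windows (60.5%), against 35.7% of all 32851 windows of the same length, and the median G and C content was 59.9%, against 52.7%. The TATA box was in 5 windows (13.2%, against 13.6%) and the CCAAT box in 13 (34.2%, against 37.4%). The SMAD box GTCTAGAC, the ATF4 element TGATGNAA and the NFI palindrome were in no collagen window, and in 0.213%, 3.97% and 0.0365% of all windows. The SMAD box and the NFI palindrome are so rare that 38 windows would seldom hold either, so their absence says little. These are matches of letters, with no measurement of binding behind them.

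Col18a1, which encodes the type XVIII chain of vascular and epithelial basement membranes, set the total. It lies at chr10:77052178-77166548. Its level was 397, 339.9 and 456 CPM in Fam210aHKO, against 803, 544 and 898 CPM in Ctrl. All 3 knockout libraries lay below all 3 controls. The log2 fold change was -0.91 ± 0.21 (SE, n = 3 and 3), with an edgeR adjusted p of 0.00839. This call depended on the scaling: with plain library totals, which move the median of all tested genes to 0.47, Col18a1 had a log2 fold change of -0.47 and an adjusted p of 0.106. Per kilobase of gene length, Col18a1 averaged 56.6 ± 8.25 in Fam210aHKO and 107 ± 26.1 in Ctrl (SD, n = 3 each, TMM-scaled CPM per kilobase), and no other collagen came near it in either group. Col15a1, the related type XV chain, averaged 5.35 ± 0.711 CPM in Fam210aHKO and 4.85 ± 0.50 CPM in Ctrl, and it was not called (edgeR adjusted p = 0.664).

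The type IV chains, which build the network of every basement membrane, moved the other way from Col18a1. Of the 5 tested type IV genes 4 were higher, and of the 3 that passed the filter in every library 2 were. Col4a1 (chr8:11198423-11312826), a chain of the ubiquitous network, had 60.1, 75.1 and 109 CPM in Fam210aHKO, against 40.8, 47.2 and 49.1 CPM in Ctrl. Its partner chain Col4a2 (chr8:11312805-11449287) had 44.2, 43.4 and 78.3 CPM in Fam210aHKO, against 28.3, 22.8 and 29.8 CPM in Ctrl. For both genes the groups did not overlap and Fam210aHKO replicate 3 was the highest library. The log2 fold changes were 0.84 ± 0.21 for Col4a1 and 1.04 ± 0.23 for Col4a2 (SE), with edgeR adjusted p of 0.0112 and 0.00657. Without Fam210aHKO replicate 3 both were still called, at 0.57 (edgeR adjusted p = 0.0296) and 0.70 (0.0115), and without Ctrl replicate 1 the adjusted p of Col4a1 was 0.0516. The ratio of Col4a2 to Col4a1 per length was 0.828, 0.652 and 0.807 in Fam210aHKO and 0.781, 0.545 and 0.684 in Ctrl, with overlapping groups; within each of the 3 same-numbered pairs the Fam210aHKO ratio was the higher.

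Col4a3 and Col4a4, chains known mainly from the basement membranes of kidney glomerulus, lung and inner ear, were rare and about 3.5-fold higher; both passed the filter only because of their Fam210aHKO levels. Col4a3 (chr1:82586921-82722059) had 2.39, 1.72 and 1.84 CPM in Fam210aHKO, against 0.696, 0.325 and 0.672 CPM in Ctrl. In reads this was 50, 25 and 42 counts in Fam210aHKO, against 8, 4 and 10 counts in Ctrl. Its head-to-head neighbour Col4a4 (chr1:82448423-82586849) had 2.15, 0.826 and 2.24 CPM in Fam210aHKO, against 0.609, 0.406 and 0.471 CPM in Ctrl. Both genes were above all controls in every knockout library, and replicate 3 held 0.896 times the mean of the other two for Col4a3 and 1.5 times for Col4a4, which was still called without it (edgeR adjusted p = 0.0419). The log2 fold changes were 1.80 ± 0.38 and 1.84 ± 0.46 (SE), with edgeR adjusted p of 0.00497 and 0.0132. Leaving out Ctrl replicate 3 (edgeR adjusted p = 0.0549) or using the deposited FPKM ended the call of Col4a4. Of the Col4a3 exon bases 5.65% are shared with an antisense transcript, C430014B12Rik, that itself had 5, 6 and 13 counts in Fam210aHKO and 10, 2 and 10 in Ctrl; the strand setting of the counting is not given in the sources used. Col4a5, the X-linked chain that joins them in the kidney network, had 4.16, 4.33 and 6.36 CPM in Fam210aHKO and 4.52, 2.92 and 4.17 CPM in Ctrl, with overlapping groups and no call (edgeR adjusted p = 0.344).

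Among the fibrillar chains, 2 of 7 tested genes were higher and 2 lower. Col3a1 (chr1:45311538-45349706), the single chain of type III collagen and a main component of the reticulin fibres of liver, had 56.1, 65.2 and 145 CPM in Fam210aHKO, against 46.3, 42.0 and 38.6 CPM in Ctrl. Col1a1 (chr11:94936224-94953042), a chain of type I collagen, had 15.9, 11.4 and 26.1 CPM in Fam210aHKO, against 10.7, 5.52 and 9.48 CPM in Ctrl. In both genes the knockout libraries lay above the controls, replicate 3 by the widest margin. The log2 fold changes were 1.07 ± 0.30 for Col3a1 and 1.06 ± 0.32 for Col1a1 (SE), with edgeR adjusted p of 0.0214 and 0.0286. Without Fam210aHKO replicate 3 the change of Col3a1 was 0.52 and still called (edgeR adjusted p = 0.0345), and that of Col1a1 was 0.67 and not called (0.101). Neither call held in limma fits of the deposited FPKM, where their adjusted p lay between 0.0794 and 0.0856, or without Ctrl replicate 2 or 3, and that of Col3a1 was also lost without Ctrl replicate 1.

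The partner chain Col1a2 (chr6:4504814-4541544) had 23.9, 19.7 and 39.4 CPM in Fam210aHKO and 24.0, 13.9 and 18.4 CPM in Ctrl. The groups overlapped, and the log2 fold change of 0.57 ± 0.27 (SE) was not called (edgeR adjusted p = 0.142). With the replicate number as a block it was 0.54 and was called (adjusted p = 0.0483). Since type I collagen is normally assembled from both chains, their ratio was computed per length. The deposited lengths are 6563 bases for Col1a1 and 12426 for Col1a2. The ratio is therefore read between the groups, and its distance from 1 is not a measure of chain proportions. Col1a1 over Col1a2 was 1.26, 1.09 and 1.25 in Fam210aHKO, against 0.844, 0.753 and 0.978 in Ctrl. The groups did not overlap; the exact two-sided permutation test gave p = 0.1, the smallest that 3 against 3 allows, and 0.4 after adjustment over the 8 chain ratios computed.

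Type V chains join fibrils of type I and help to start them, and here they did not move together. Col5a3 (chr9:20770050-20815067) had 3.68, 2.34 and 5.57 CPM in Fam210aHKO, against 10.2, 6.41 and 12.5 CPM in Ctrl. Every knockout library lay below every control, and the log2 fold change was -1.31 ± 0.33 (SE, edgeR adjusted p = 0.0121); without Ctrl replicate 3 the adjusted p was 0.0578. Col5a1 and Col5a2 were not called, at 0.63 ± 0.32 (adjusted p = 0.163) and 0.76 ± 0.31 (0.0986), and replicate 3 held their highest levels. The ratio of Col5a3 to Col5a1 per length was 0.608, 0.471 and 0.446 in Fam210aHKO, against 2.11, 1.39 and 2.17 in Ctrl. In Ctrl the alpha 3 transcript thus exceeded alpha 1 in all 3 libraries and in Fam210aHKO in none of them (exact permutation p = 0.1, adjusted 0.4). The other 6 ratios overlapped between the groups. Within same-numbered pairs, Col4a2 over Col4a1, Col6a3 over Col6a1 and Col3a1 over Col1a2 were higher in Fam210aHKO in 3 of 3. Col6a2 over Col6a1 was higher in 2 of 3, and Col4a3 over Col4a4 and Col5a1 over Col5a2 in 1 of 3. These pairs were counted, not tested.

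Col27a1 (chr4:63214004-63334991), a fibrillar chain best known from cartilage, had the largest fold change among the tested collagens. Its level was 1.29, 0.688 and 2.41 CPM in Fam210aHKO, against 9.74, 3.90 and 7.53 CPM in Ctrl. In counts this was 27, 10 and 55 in Fam210aHKO, against 112, 48 and 112 in Ctrl. The groups did not overlap, and the log2 fold change was -2.22 ± 0.43 (SE, edgeR adjusted p = 0.00311). Col27a1, Col4a2 and Col4a3 were the tested collagens whose call held in all 16 alternatives described under the processing.

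**Figure D2:**
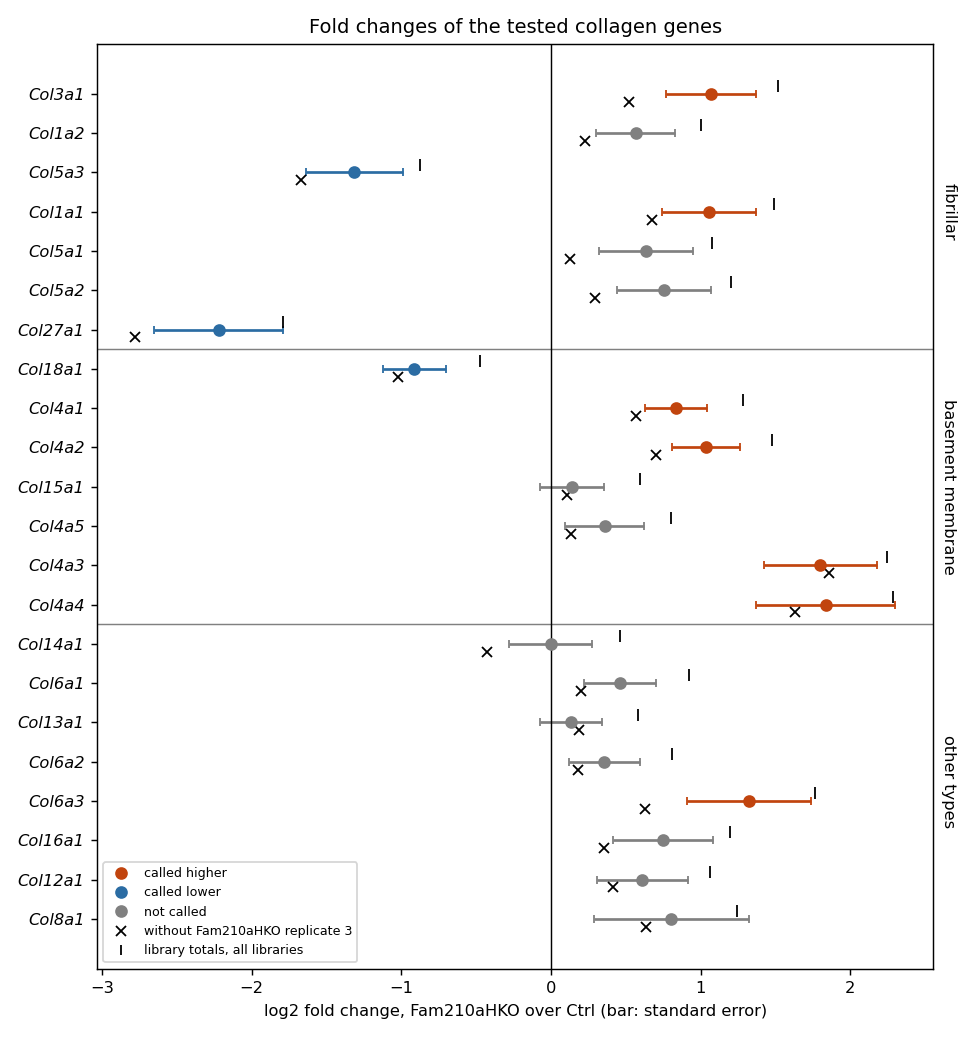
Log2 fold change of each tested collagen, Fam210aHKO over Ctrl, with its standard error; crosses give the value without Fam210aHKO replicate 3 and vertical ticks the value with plain library totals. Crosses lie left of the points for most genes, ticks lie right of all of them, and no called gene changes sign.

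Of the other types, 25 genes, 8 were tested and 1 was called. Col6a3 (chr1:90765923-90843971), the large chain of the type VI beaded filament, had 9.38, 5.92 and 21.9 CPM in Fam210aHKO, against 6.44, 3.65 and 4.84 CPM in Ctrl. Replicate 3 alone was far above the controls and replicate 2 lay within them. The log2 fold change was 1.33 ± 0.41 (SE, edgeR adjusted p = 0.035), and without Fam210aHKO replicate 3 it was 0.63 and not called (adjusted p = 0.139). The call was also lost in limma-voom, in both FPKM fits and without any 1 of the 3 Ctrl replicates. Its partner chains Col6a1 and Col6a2 were not called, at 0.46 ± 0.24 (edgeR adjusted p = 0.185) and 0.36 ± 0.24 (0.294).

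Col14a1, a chain that coats fibril surfaces, was the second most abundant collagen per length in Ctrl. It had 39.7, 46.6 and 87.3 CPM in Fam210aHKO and 44.0, 72.8 and 57.1 CPM in Ctrl, with a log2 fold change of -0.00 ± 0.28 (SE, edgeR adjusted p = 0.997). Col6a1 had 10.6, 9.29 and 15.9 CPM in Fam210aHKO and 9.22, 10.2 and 6.72 CPM in Ctrl. Col13a1, a transmembrane collagen of cell adhesions, had 5.55, 6.74 and 5.48 CPM in Fam210aHKO and 4.78, 5.60 and 5.78 CPM in Ctrl (0.13 ± 0.21, edgeR adjusted p = 0.678). The groups overlapped for all 3 genes. The fibril-associated chains Col12a1 and Col16a1 and the network chain Col8a1 had log2 fold changes of 0.61, 0.75 and 0.80, none of them called (edgeR adjusted p between 0.121 and 0.283), and of these Col12a1 did not overlap between the groups.

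Of the 22 genes below the filter, 3 had no read in any library (Col26a1, Col19a1 and Col9a1), 8 had between 1 and 10 counts over the 6 libraries and 11 had more. None exceeded 0.861 CPM in any library. The largest total was that of Col11a2, a minor fibrillar chain of cartilage, with 36 counts in Fam210aHKO and 10 in Ctrl. Col9a3, a chain of the cartilage fibril surface, had 24 counts in Fam210aHKO and 4 in Ctrl, and Col10a1, the collagen of hypertrophic cartilage, had 2 in Fam210aHKO and 9 in Ctrl. Col2a1, the main cartilage chain, had 1 count in Fam210aHKO and 0 in Ctrl. A count of 3 was worth between 0.132 and 0.261 CPM, and the filter kept these genes out of the test. In the fit without a filter the 19 with any count were tested and none was called by edgeR (smallest adjusted p = 0.132, for Col9a3), and 3 of them had an unadjusted p under 0.05. There was no overlap in CPM between the groups for Col11a2 and Col9a3, with the Fam210aHKO libraries above, and for Col24a1, Col10a1, Col7a1 and Col17a1, with the Fam210aHKO libraries below. In raw counts Col24a1 overlapped, at 3, 0 and 5 in Fam210aHKO and 3, 4 and 5 in Ctrl. Col7a1 (1, 0 and 1, against 4, 1 and 3) and Col17a1 (1, 0 and 0, against 2, 1 and 1) shared a count of 1 between the groups. For these 3 genes the separation in CPM came with the scaling of the libraries. The matching share over all genes below the filter was not computed.

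Weighed per kilobase, the collagen transcript pool changed its proportions. Col18a1 made up 58.0%, 53.4% and 45.9% of it in Fam210aHKO, against 76.7%, 68.7% and 77.9% in Ctrl. Type IV chains made up 16.3%, 19.3% and 19.7% in Fam210aHKO, against 7.08%, 9.10% and 7.20% in Ctrl. Fibrillar chains made up 12.7%, 13.2% and 18.6% in Fam210aHKO, against 8.02%, 7.77% and 6.54% in Ctrl. None of these 3 shares overlapped between the groups, and shares of 1 pool are tied to each other, since a fall of the largest raises the rest. Per gene, the order below Col18a1 was Col4a1, Col3a1, Col4a2 and Col14a1 in Fam210aHKO, at means of 10.9 ± 3.37, 9.05 ± 4.99, 8.35 ± 3.01 and 8.25 ± 3.66, which lay within their own spread. In Ctrl it was Col14a1, Col4a1, Col3a1 and Col4a2, at 8.27 ± 2.06, 6.12 ± 0.582, 4.31 ± 0.392 and 4.07 ± 0.553 (SD, n = 3 each, TMM-scaled CPM per kilobase), where Col3a1 and Col4a2 did not differ beyond their spread.

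**Figure D3:**
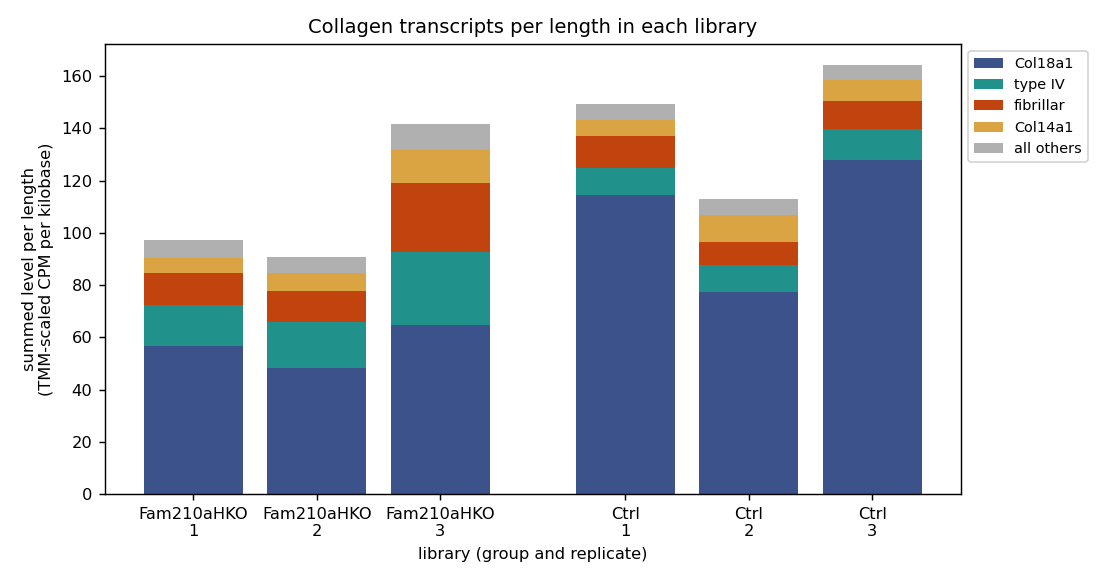
Summed level of all 44 collagens in each library, in TMM-scaled CPM per kilobase of gene length, stacked by chain type, with Fam210aHKO libraries left and Ctrl libraries right. The Col18a1 segment is shorter and the type IV segment taller in each Fam210aHKO library than in each Ctrl library, and Fam210aHKO replicate 3 has the tallest fibrillar segment.

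All collagens together summed to 710.3, 664 and 1059 CPM in Fam210aHKO and 1072, 809 and 1173 CPM in Ctrl, with overlap. Leaving out Col18a1, the sum was 314, 324 and 603 CPM in Fam210aHKO, against 269, 265 and 276 CPM in Ctrl. The type IV sum was 113, 125 and 198 CPM in Fam210aHKO, against 75.0, 73.6 and 84.2 CPM in Ctrl, a ratio of means of 1.88, and 1.54 without Fam210aHKO replicate 3. The fibrillar sum was 115, 114 and 249 CPM in Fam210aHKO and 114, 83.1 and 99.4 CPM in Ctrl, a ratio of 1.61, and 1.16 without that replicate.

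In whole tissue, fewer cells of a type and less RNA per cell cannot be told apart, so the markers of the cells that make or border the matrix are given beside these values. Stellate cell markers, 12 genes all tested, summed to between 229 and 369 CPM in Fam210aHKO and between 201 and 240.4 CPM in Ctrl, with 1 called higher (14.0% of all tested genes were). The called gene is not named here. The median log2 fold change of the 12 was 0.35, against 0.02 for all tested genes. Their ratio of mean sums was 1.32, and 1.14 without Fam210aHKO replicate 3. Lrat, which stores retinol as ester, stood at 19 ± 3.1 CPM in Fam210aHKO and 18.7 ± 2.5 CPM in Ctrl (SD, n = 3 each) and was not called (edgeR adjusted p = 0.938). With library totals 8 of the 12 were called higher, as were 42.7% of all tested genes. Portal fibroblast markers summed to between 47.6 and 65.4 CPM in Fam210aHKO and between 24.1 and 37.7 CPM in Ctrl, with 2 of 7 tested higher, Entpd2 and the elastin gene Eln, which also stands in the list of fibril-binding genes. These 2 carried the difference in the sum. The other 8 genes came to 17.2, 15.9 and 22.1 CPM in Fam210aHKO and 20.4, 16.3 and 17.8 CPM in Ctrl. Thy1 and Dpt, not called, had log2 fold changes of -0.47 and -0.21. Both lay below the median of the 7 tested genes, which was 0.41. Of 3 tested myofibroblast and smooth muscle markers 1 was lower, Myh11, and Acta2, the usual mark of stellate cell activation, averaged 3.79 ± 1.39 CPM in Fam210aHKO and 3.59 ± 3.12 CPM in Ctrl (edgeR adjusted p = 0.929).

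Sinusoidal and vascular endothelial markers summed to between 244 and 406 CPM in Fam210aHKO and between 373 and 489 CPM in Ctrl. Of 9 tested, 2 were lower, Stab2 and Clec4g. Without Fam210aHKO replicate 3 there were 6, without Ctrl replicate 1 there was 1, and leaving out any other single library left 0, so the endothelial count turned on single libraries. It was also 0 with upper-quartile factors or library totals and 5 with the replicate block. Calls lower over all tested genes fell too, from 1852 to 1593 and 1334 without Fam210aHKO replicate 1 or 2. Hepatocyte markers summed to between 81480 and 104700 CPM in Fam210aHKO and between 142100 and 222200 CPM in Ctrl, with 4 of 6 lower. Macrophage markers overlapped in sum, 166 to 299 CPM in Fam210aHKO and 196 to 269 CPM in Ctrl, with 3 of 6 higher, Gpnmb, Trem2 and Cd68, which mark lipid-laden and phagocytic states. Of the resident Kupffer cell markers in that list, Timd4 had 5.79, 8.81 and 10.8 CPM in Fam210aHKO and 12.5, 11.6 and 10.9 CPM in Ctrl (log2 fold change -0.46, edgeR adjusted p = 0.167), without overlap, and Clec4f had a log2 fold change of -0.17 (adjusted p = 0.607). Cholangiocyte markers summed to between 26.6 and 38.4 CPM in Fam210aHKO and between 21.6 and 24.4 CPM in Ctrl, with 1 of 4 tested higher, Epcam. Mesothelial markers were near the detection limit, at most 0.861 CPM in sum in Fam210aHKO and 3.13 CPM in Ctrl, with Upk3b and Msln lower and Krt14 at 0 in all libraries, the only listed marker at 0 throughout a group. In Fam210aHKO replicate 3 the stellate, endothelial and macrophage sums were 1.48, 1.49 and 1.47 times the mean of the other knockout libraries, beside 2.18 for the fibrillar, 2.0 for the type VI and 1.66 for the type IV sum. Over all marker lists 7 of 49 tested genes were higher (14.3%) and 9 lower (18.4%), beside 14.0% and 13.5% of all tested genes. The part of cell make-up in the collagen differences was not tested.

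**Figure D4:**
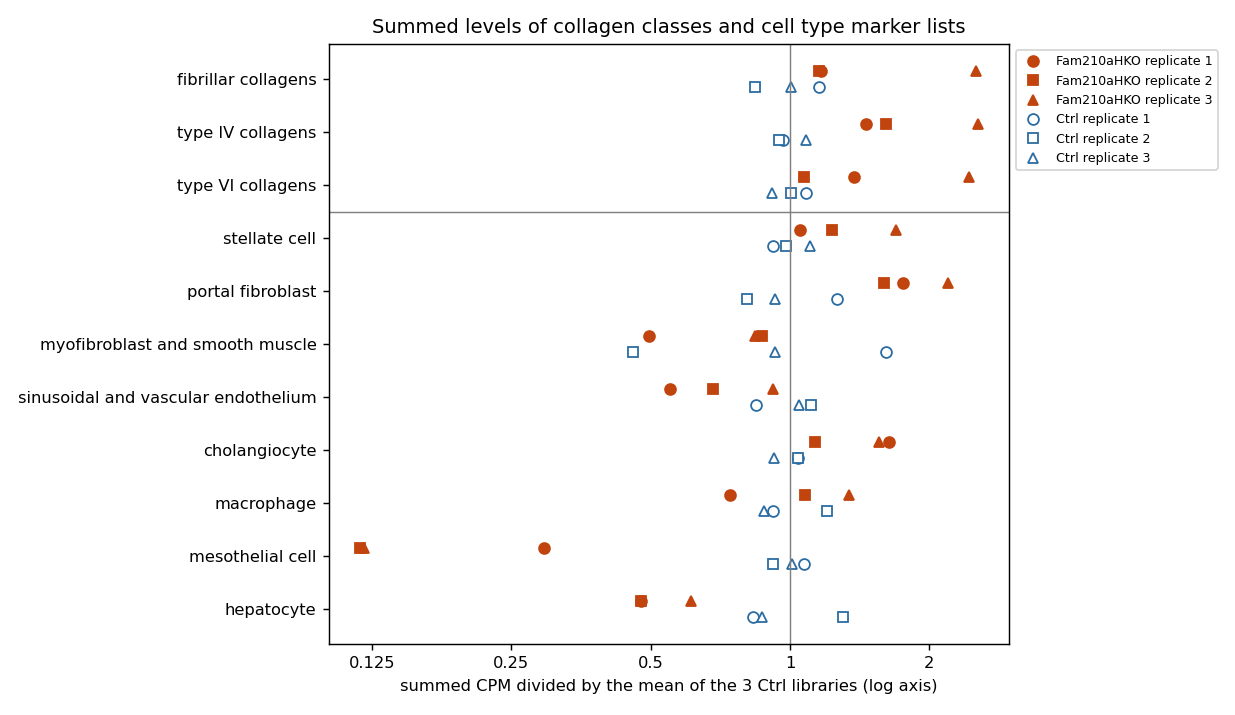
Summed CPM of 3 collagen classes and of 8 cell type marker lists in each library, divided by the mean of the 3 Ctrl libraries (log axis); filled symbols are Fam210aHKO and open symbols Ctrl. Type IV sums lie right of all controls in every Fam210aHKO library, hepatocyte sums lie left of all controls, and replicate 3 (triangles) leads the fibrillar, type VI and stellate cell rows.

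Genes that make, process and bind collagen were examined by role, and of 100 tested over 9 lists 25 were called higher and 5 lower, beside 14.0% and 13.5% of all tested genes. Leaving out 1 library gave 10 to 22 higher, with the fewest without Ctrl replicate 3, and library totals gave 60, beside 42.7% of all tested genes. Calls higher over all tested genes also fell, from 1922 to 1475, 1433 and 1897 without Fam210aHKO replicate 1, 2 or 3. By list, leaving out 1 library gave 1 to 2 higher for hydroxylation and glycosylation, 0 to 2 for chaperoning and export, 1 to 3 for trimming, 0 to 2 for lysyl oxidases, 2 to 5 for fibril-binding genes, 2 to 4 for laminins and their partners and 1 to 4 for signalling, with 1 collagenase and 2 receptors each time. Among 13 tested genes of procollagen hydroxylation and glycosylation 3 were higher. P4ha2, a catalytic subunit of prolyl 4-hydroxylase, which makes the triple helix stable, had 11.9, 11.2 and 9.96 CPM in Fam210aHKO, against 3.04, 3.0 and 3.09 CPM in Ctrl. That is a log2 fold change of 1.85 ± 0.20 (SE, edgeR adjusted p = 7.6e-05) with tight groups, and replicate 3 was the lowest of the knockout libraries. Plod1, a lysyl hydroxylase, and Crtap, of the prolyl 3-hydroxylase complex, were higher by 0.58 and 0.73. Of 12 genes of chaperoning and export, Sparc (0.76), a collagen-binding secreted protein, and Fkbp10 (1.69), a prolyl isomerase of procollagen, were higher, and Mia2 (-0.50), an organiser of export sites for large cargo, was lower. None of the 12 was called without Fam210aHKO replicate 3 or without Ctrl replicate 3, and without Ctrl replicate 2 there were 3 lower and 0 higher.

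Trimming of propeptides showed changes in both directions among 5 tested genes. Adamts14, a proteinase that removes the N-terminal propeptide, had 10.2, 7.43 and 10.8 CPM in Fam210aHKO, against 0.609, 1.22 and 0.807 CPM in Ctrl. Its log2 fold change was 3.42 ± 0.30 (SE, edgeR adjusted p = 2.2e-05). Bmp1, which removes the C-terminal propeptide of fibrillar chains, had 64.8, 55.2 and 68.1 CPM in Fam210aHKO, against 145.5, 125 and 167 CPM in Ctrl (-1.22 ± 0.16, edgeR adjusted p = 0.000258), and Pcolce, an enhancer of that step, was higher by 0.81. The groups of Adamts14 and of Bmp1 did not overlap. Among 5 lysyl oxidases, which cross-link collagen and elastin, Loxl2 was higher by 0.78 with an adjusted p of 0.0478, close to the threshold and lost with median-of-ratios scaling; Lox had 0.82 and was not called (edgeR adjusted p = 0.0802).

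Of 8 tested collagenases, uptake receptors and inhibitors 1 was called, Mmp2, a gelatinase, at 8.66, 8.67 and 14.3 CPM in Fam210aHKO, against 4.87, 2.11 and 3.76 CPM in Ctrl (log2 fold change 1.56 ± 0.31, edgeR adjusted p = 0.00378). Among 9 tested collagen receptors 2 were higher and 1 lower. Ddr1, a receptor kinase that fibrillar and type IV collagens activate, had 15.3, 13.3 and 13.2 CPM in Fam210aHKO, against 2.09, 1.38 and 1.34 CPM in Ctrl. This was a log2 fold change of 3.12 ± 0.24 (SE, edgeR adjusted p = 1e-05). Adgrg1, an adhesion receptor that binds type III collagen, was higher by 2.07 ± 0.23 (adjusted p = 0.000102), and Itga2, the alpha chain of a collagen-binding integrin, was lower, with a log2 fold change of -1.88 ± 0.51 (0.019).

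The partners of type IV collagen in basement membranes are laminins, nidogens and heparan sulfate proteoglycans. Of 15 tested genes, 5 were higher and 1 lower, and 2 were higher without Fam210aHKO replicate 3. Nid1, which bridges laminin and type IV collagen, had 51.0, 57.6 and 87.9 CPM in Fam210aHKO, against 24.4, 28.7 and 25.3 CPM in Ctrl (log2 fold change 1.33 ± 0.20, edgeR adjusted p = 0.000757). The laminin chains Lamc1, Lamb1 and Lama5 were also higher, with log2 fold changes of 0.95, 0.89 and 0.89. Lama3, a laminin chain of epithelial attachment, was lower, with 0.191, 0.344 and 0.395 CPM in Fam210aHKO and 4.43, 4.79 and 8.27 CPM in Ctrl (-4.21 ± 0.39, edgeR adjusted p = 3.4e-05). Hspg2, the perlecan core protein, had 32.9 ± 14.1 CPM in Fam210aHKO and 29.6 ± 3.24 CPM in Ctrl (SD, n = 3 each) and was not called (edgeR adjusted p = 0.686).

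Of 15 tested fibril-binding proteoglycans and glycoproteins 5 were higher, Lum (0.96), Fbn1 (1.23), Eln (1.34), Thbs1 (0.92) and Bgn (0.51), of which lumican and biglycan bind collagen fibrils and fibrillin and elastin form elastic fibres. Vtn, a plasma glycoprotein made by hepatocytes, was lower, with a log2 fold change of -1.30 ± 0.21 (SE, edgeR adjusted p = 0.00118). Fn1, on which collagen fibrils assemble and which hepatocytes also secrete into plasma, had 1019 ± 371 CPM in Fam210aHKO and 1765 ± 442 CPM in Ctrl (SD, n = 3 each), and its edgeR adjusted p was 0.057. Among 18 genes of TGF-beta and PDGF signalling 4 were higher, the ligands Pdgfc (1.48) and Pdgfa (1.04), the receptor gene Pdgfra (0.69) and the signal transducer Smad2 (0.54). Tgfb1, the ligand most often tied to collagen induction, averaged 9.62 ± 2.77 CPM in Fam210aHKO and 8.43 ± 0.563 CPM in Ctrl (SD, n = 3 each, edgeR adjusted p = 0.56).

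**Figure D5:**
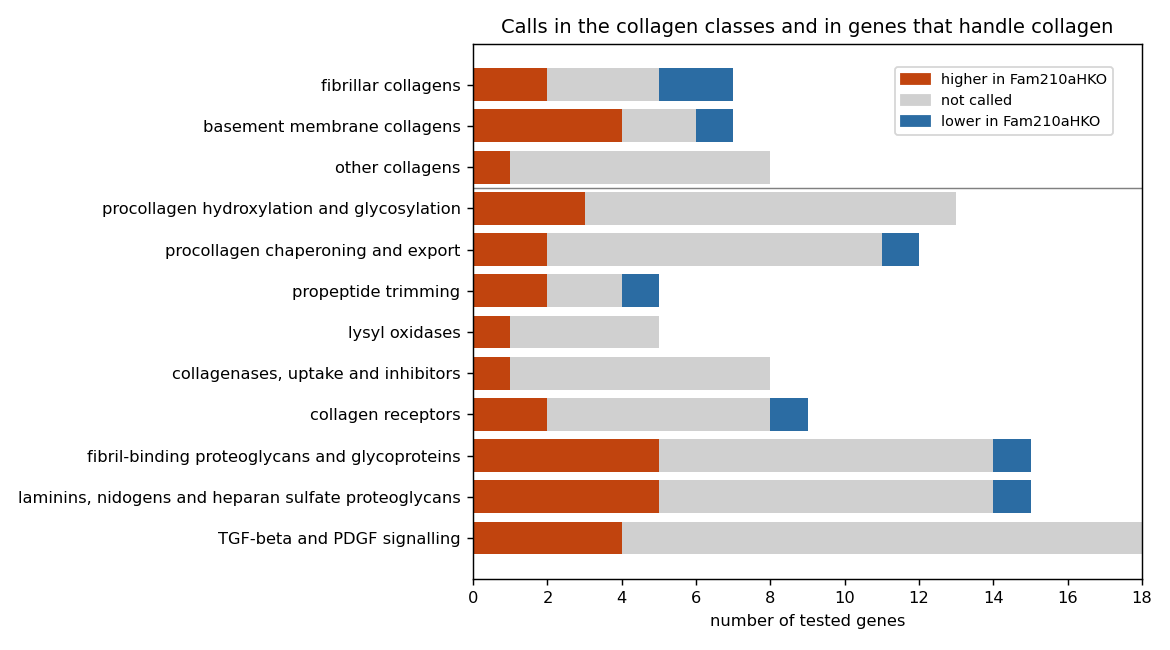
Number of tested genes called higher, not called and called lower in Fam210aHKO for the 3 collagen classes (top) and 9 lists of genes that make, process, bind or regulate collagen. Basement membrane collagens have 4 of 7 genes higher, and the laminin and fibril-binding lists 5 of 15 each. Col4a3 and Col4a4, counted among those 4, passed the filter through Fam210aHKO libraries only, so they had to be higher there to be tested.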

How the data were processed

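Whole-number counts per Ensembl gene for 6 liver libraries were deposited by the authors, together with FPKM values, also deposited. The submitters' processing notes name build mm10 and the tools FastQC, Trimmomatic, STAR, featureCounts and DESeq2, without versions. Back-calculated from the deposited FPKM, the library size was 86.3%, 82.8% and 81.6% of all counts in Fam210aHKO and 60.1%, 55.4% and 59.4% in Ctrl. Per the labels, poly-T beads were used to enrich mRNA.

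Counts were tested in edgeR 4.0.16 (R 4.3.3) with group as the only factor, filterByExpr (minimum count 10), TMM factors of 1.19, 1.16 and 1.16 in Fam210aHKO and 0.887, 0.797 and 0.882 in Ctrl, and the quasi-likelihood F test, adjusted over 13706 genes. A standard error is the size of the log2 change over the root of its F value. The common biological coefficient of variation was 0.196. Levels per kilobase divide CPM by the deposited gene length. For 42 of the 44 collagens that length equals all annotated exon bases of the gene together, which can exceed any single transcript. Ratios, ranks and shares between genes per kilobase depend on these lengths.

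Members and the 17 gene lists were chosen with earlier results of these data known, so the lists are described by counts only. Every collagen is accounted for; called collagens and the 3 most abundant per class have values for each library, and lists are represented by called members of smallest p. Some other genes (Acta2, Lrat, Hspg2, Fn1, Lox, Tgfb1, Thy1, Dpt, Timd4 and Clec4f) were named for their roles or their direction after their values were seen. Some members counted in the lists are not reported here by name. The TGF-beta and PDGF list had 19 symbols, of which 18 were in the table. Same-numbered libraries deviated together over all tested genes (correlations 0.245, 0.182 and 0.155, against -0.141 to -0.0262 for other pairs). Over the 22 tested collagens the same correlations were 0.228, 0.373 and -0.275, against -0.407 to 0.345 for other pairs, so there the third pair did not. The labels do not state what a number stands for. Pairing by number was used only in the replicate block and in the counts of pairs. The main fit and the permutation tests did not use it.

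Results were recomputed under 16 alternatives: size factors by median of ratios or by upper quartile, plain library totals, all genes without a filter, a filter at CPM above 1 in 3 libraries, limma-voom (limma 3.58.1), DESeq2 1.42.0, limma on log2(FPKM + 1) and log2(FPKM + 0.1), the replicate block and each library left out. A simulation of this comparison held 13380 genes. In it edgeR found 82% of the genes changed by 1 log2 unit and 100% of those changed by 2, with 13 false calls. The 200 changed genes were drawn from above a lower limit of mean level, so these shares do not cover the rarest tested genes. No difference in scaling between groups was simulated. Chain ratios were compared with exact permutation tests.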

Additional observations from a re-analysis of the deposited data

How the results depend on the processing

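Over the 16 alternatives no collagen call changed direction. With library totals, which set the median of all tested genes at 0.47 on the log2 scale, 17 collagens, 60 partner genes, 18 marker genes and 5846 of all genes were higher, 868 of all genes were lower, and the collagen median was 1.07. The limma fits on log2(FPKM + 1) and log2(FPKM + 0.1) called 3 collagens and 15 partner genes higher each, beside 1590 and 1589 of 13706 tested genes. On log2(FPKM + 1) the collagen median was 0.21. With the replicate block, which pairs same-numbered libraries, 8 collagens were higher, Col1a2 being the added call, and 8 partner genes were lower. Calls also rose over all tested genes, to 2434 higher and 2462 lower, from 1922 and 1852 in the main fit. The block changed no other collagen call. Leaving out 1 library at a time gave 3 to 8 collagens higher and 2 to 3 lower, and 10 to 22 partner genes higher and 3 to 7 lower. It gave 6 to 14 marker genes lower, and a collagen median from 0.26 to 0.82. Without Fam210aHKO replicate 1, 2 or 3, 8, 7 and 5 collagens were higher. In the same fits 1475 of 13895, 1433 of 14120 and 1897 of 13861 tested genes were higher. The all-gene counts without a Ctrl replicate are not given here. The lowest count of collagens higher, 3, came without Ctrl replicate 3, and without Ctrl replicate 1 or 2 it was 4. The cause was not tested. Depth limits the 22 untested collagens and the type IV chains Col4a3 and Col4a4, which had 4 to 10 and 5 to 7 counts in the Ctrl libraries.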
